A study of Mus musculus with 18 samples.

Results

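Crypts labelled as lacking E2f1, E2f2 and E2f3 were set directly against crypts labelled as lacking Myc, gene by gene and without reference to control crypts. The comparison takes every array titled E2f TKO (5 arrays) and every array titled Myc KO (4 arrays), which is 9 of the 18 arrays of the study. All 18193 genes with a probe set of their own entered it, each read by the probe set with the highest mean over all 18 arrays. RNA came from small-intestinal crypts of adult mice aged 2 months, 2 days after deletion, and was hybridised to single-colour arrays. The deletions used Ah-cre, in which the inducible Cyp1a1 promoter drives the Cre recombinase in the intestinal epithelium once the aryl hydrocarbon receptor binds a ligand. By their labels, E2f TKO mice lack E2f1, E2f2 and E2f3, and Myc KO mice lack Myc alone. Whether E2f1 and E2f2 were already absent from the germline, and which alleles or inducing treatment the groups share, is not settled by the labels. The other groups, used here as background only, are control (4 arrays) and E2f/Myc QKO with all 4 genes deleted (5 arrays). Nothing in the labels says how the arrays relate to animals or extractions, so p-values measure the spread between these arrays.

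E2F proteins bind promoters with a Dp partner and are held in check by pocket proteins of the Rb family. Cyclin-dependent kinases release that check, and CDK inhibitors of the INK4 and Cip/Kip families oppose the kinases. E2F1, E2F2 and E2F3 are best known as activators of genes for DNA replication, while Myc, paired with Max at E-box sequences, is best known for raising genes of ribosome production, nucleotide synthesis and translation. Both act in the dividing cells of the intestinal crypt.

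Values are log2 signals, on which a difference of 1 is 2-fold, and each difference is E2f TKO minus Myc KO, so that a positive value means higher in E2f TKO. The ± after a difference is limma's standard error, and the adjusted p is limma's with Benjamini-Hochberg adjustment over the 18193 genes. A gene passed at an adjusted p below 0.05. Array medians were 6.14 to 6.19 in E2f TKO and 6.22 to 6.26 in Myc KO, and precision is limited by how many arrays there are. In a bulk sample, fewer cells of a type and less RNA per cell cannot be told apart.

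The arrays labelled E2f TKO 2 and 5 stood apart from the rest of their group. Cyp1a1, whose promoter drives the recombinase, read 14.09, 14.03 and 14.02 in E2f TKO 1, 3 and 4 and 13.53 to 13.71 in Myc KO, but only 5.05 and 4.91 in those 2 arrays. E2f3 read 9.35 and 9.10 in the same pair and 8.08 to 8.39 in the other E2f TKO arrays, against 8.44 to 8.60 in Myc KO and 8.62 to 8.96 in control. The pair thus lay above every control array in this probe set, for a gene their label gives as deleted. That reading goes against the label but does not settle it, as the probe set was not placed relative to the deleted exons. For Cdkn2c the pair read with their group, at 6.95 and 6.97 against 10.28 to 10.68 in Myc KO. E2f TKO 2 and 5 are used as names of labels only. E2f TKO 1 stood apart in another way, with lower growth and cell-cycle signals than the other 4 E2f TKO arrays. The non-coding RNA Xist was high in E2f TKO 1 and 4 (12.02 and 12.54) and at 6.56 to 6.74 in the other 7 arrays. The actin control probe sets differed from 3' to 5' end by 0.255 to 0.78 in E2f TKO and 0.183 to 0.219 in Myc KO, groups that do not overlap, and the part of RNA quality in any difference was not tested apart from the covariate fit given with the alternatives. The main counts over all 9 arrays are also given with the arrays labelled E2f TKO 2 and 5 left out, and with E2f TKO 1 left out.

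Of the 18193 genes, 1237 (6.80%) differed between the groups, 756 (4.16%) higher in E2f TKO and 481 (2.64%) higher in Myc KO. The median difference over all genes was -0.02. In 1146 of them (6.30% of all genes) the 5 and 4 arrays did not overlap, and 176 (0.967%) differed at least 2-fold, 122 (0.671%) higher in E2f TKO and 54 (0.297%) higher in Myc KO. With E2f TKO 2 and 5 left out, 1136 genes passed (6.24%), 556 (3.06%) higher in E2f TKO and 580 (3.19%) higher in Myc KO, and 704 of the 1237 genes were among them. Without E2f TKO 1, 3180 genes passed (17.5%), 1848 (10.2%) higher in E2f TKO and 1332 (7.32%) higher in Myc KO, including all 1237. A fit of all 18 arrays, in which control and QKO arrays add to the estimate of spread, passed 2552 genes (14.0%), 1432 (7.87%) higher in E2f TKO and 1120 (6.16%) higher in Myc KO. The share of passing genes that were higher in E2f TKO was 61.1%, against 81% with arrays centred on their medians, 51.6% with a gene's probe sets averaged and 48.9% with E2f TKO 2 and 5 left out.

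The control crypts place these differences. Of the 756 genes higher in E2f TKO, 518 had a control mean nearer E2f TKO and 238 nearer Myc KO. Of the 481 genes higher in Myc KO, the control mean was nearer E2f TKO for 277 and nearer Myc KO for 204. These counts are a description with no test. Genes within 20 Mb of a deleted gene passed at rates of 6.12% to 8.04% for the 4 loci, against 6.75% elsewhere.

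Myc, the deleted gene of one group, separated the arrays fully. Its signal was 10.07, 10.50, 9.99, 10.66 and 10.27 in E2f TKO 1 to 5 and 8.40, 8.19, 8.11 and 8.25 in Myc KO 1 to 4. Every E2f TKO array was above every Myc KO array, by 2.06 ± 0.14 on average (adjusted p = 6.93e-05), and control arrays read 9.69 to 10.30. The probe sets of the E2f genes did not separate the groups in this way. E2f3 differed by 0.10 ± 0.24 (adjusted p = 0.840), and by -0.30 (adjusted p = 0.0993) once the arrays labelled E2f TKO 2 and 5 were left out. E2f1 was lower in E2f TKO by a difference of -0.36 ± 0.10 that missed the test (adjusted p = 0.0594), while a second E2f1 probe set differed by 0.18 in the other direction. E2f2 differed by -0.02 ± 0.16 (adjusted p = 0.955). Where these probe sets lie relative to the deleted exons was not analysed here, and a probe set outside the deleted part does not check a deletion.

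**Figure D1:**
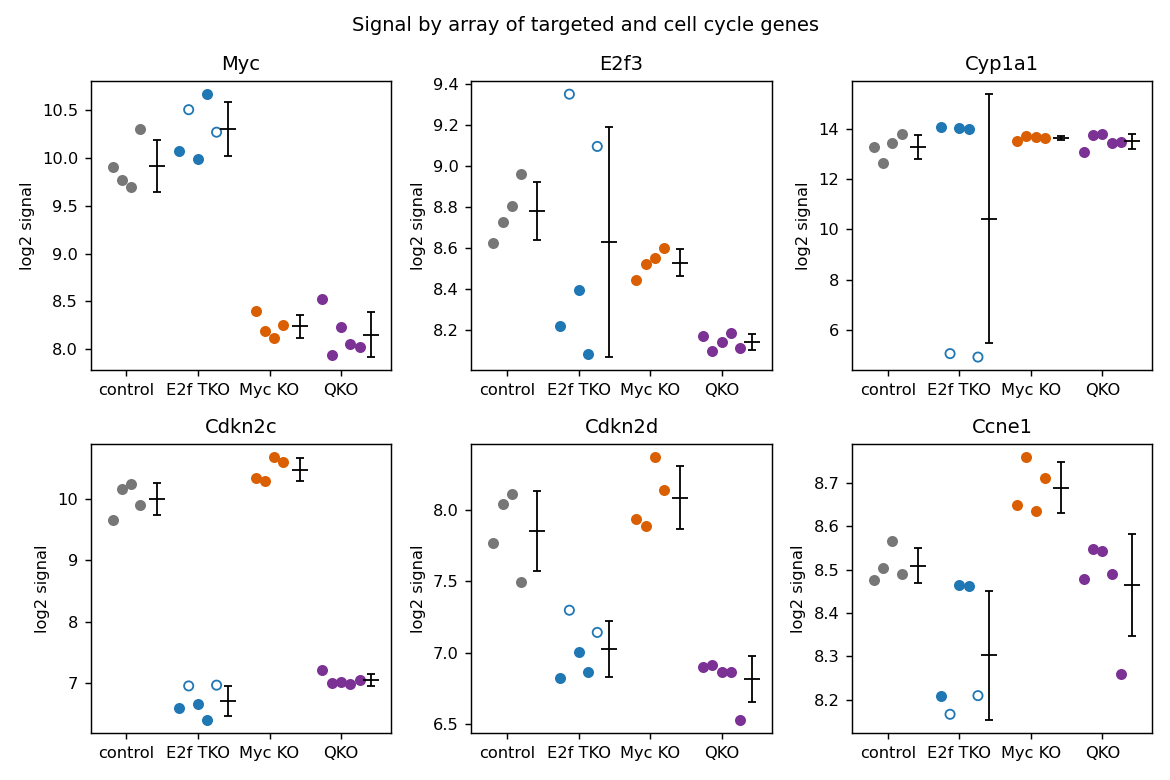
Log2 signal of Myc, E2f3, Cyp1a1, Cdkn2c, Cdkn2d and Ccne1 in each of the 18 arrays by group, with bars at the mean ± SD of a group; open circles are the arrays labelled E2f TKO 2 and 5. Myc and Cdkn2c separate the groups with no overlap, Myc higher in E2f TKO (9.99 to 10.66 against 8.11 to 8.40) and Cdkn2c higher in Myc KO (10.28 to 10.68 against 6.40 to 6.97).

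Among the CDK inhibitors, the INK4 genes Cdkn2c and Cdkn2d were higher in Myc KO. Cdkn2c, which encodes the CDK4 and CDK6 inhibitor p18, read 6.59, 6.95, 6.65, 6.40 and 6.97 in E2f TKO and 10.34, 10.28, 10.68 and 10.59 in Myc KO. The groups were far apart with little spread within either, and the difference was -3.76 ± 0.14 (adjusted p = 1.35e-06). The control mean was 9.99, near Myc KO, and the QKO mean was 7.05, near E2f TKO. Cdkn2d, which encodes the related inhibitor p19, read 6.82, 7.30, 7.0, 6.86 and 7.14 in E2f TKO and 7.94, 7.89, 8.37 and 8.14 in Myc KO, again with no overlap. It differed by -1.06 ± 0.13 (adjusted p = 0.00196). Cdkn2b, for p15, differed by -0.68 ± 0.20 and missed the test (adjusted p = 0.0691), though it passed with E2f TKO 2 and 5 left out at -0.86 (adjusted p = 0.0463). The INK4 gene Cdkn2a differed by 0.04 ± 0.09 (adjusted p = 0.813). Cdkn1c, for p57, differed by -0.56 ± 0.15 (adjusted p = 0.0590) and Cdkn1b, for p27, by 0.60 ± 0.20 (adjusted p = 0.109). Cdkn1a, for p21, spread from 9.74 to 11.65 within E2f TKO and differed by 0.07 ± 0.37 (adjusted p = 0.934). Second probe sets of Cdkn1b and Cdkn1a each differed by -0.73. In all, 2 of the 7 measured CDK inhibitors passed, both higher in Myc KO, where 2.64% of all genes did. The list's median difference was -0.56. With E2f TKO 2 and 5 left out 3 passed higher in Myc KO, against 3.19% of all genes in that fit. Without E2f TKO 1 the count was 4 higher in Myc KO and 1 higher in E2f TKO, against 7.32% and 10.2% of all genes.

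Within the E2f and Dp family, 2 of 10 measured members passed, against 6.80% of all genes. E2f7, an atypical E2F that represses transcription, read 5.47, 7.07, 6.02, 6.92 and 6.96 in E2f TKO and 7.62 to 7.93 in Myc KO. The E2f TKO arrays were all lower but spread widely, and the difference was -1.24 ± 0.31 (adjusted p = 0.0416). Tfdp1, the main Dp partner, was higher in E2f TKO by 0.55 ± 0.12 (adjusted p = 0.0256). Both calls were lost in 6 of the 9 fits that left out 1 array: E2f7 without E2f TKO 3 or 4 or any Myc KO array (adjusted p up to 0.107), Tfdp1 without E2f TKO 2, 3 or 4 or Myc KO 1, 2 or 3 (up to 0.0876). Tfdp1 also missed with E2f TKO 2 and 5 left out (adjusted p = 0.0781). The repressor E2f4 differed by -0.09, E2f5 by -0.15, E2f6 by 0.03, the atypical E2f8 by 0.09 and Tfdp2 by -0.13, with adjusted p from 0.220 to 0.883. Among 10 pocket protein and MuvB genes, Lin54 (0.59) and Lin52 (-0.27), subunits of the MuvB core, passed in opposite directions (adjusted p = 0.0310 and 0.0494), where 6.80% of all genes passed. A second Lin54 probe set differed by -0.29. Rb1, Rbl1 and Rbl2 differed by 0.18, 0.01 and -0.01 (adjusted p = 0.486, 0.925 and 0.983). Neither MuvB call held with E2f TKO 2 and 5 left out (adjusted p = 0.0732 for both), and they were lost in 6 and 8 of the 9 fits that left out 1 array, Lin54 keeping its call without E2f TKO 1 or 5 or Myc KO 4 and Lin52 only without E2f TKO 1.

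Of 11 cyclins and their partners, Ccnd1 was higher in E2f TKO and Ccne1 higher in Myc KO, against 4.16% and 2.64% of all genes. Ccnd1, for the cyclin D1 that activates CDK4 and CDK6, read 9.87, 10.72, 10.39, 10.67 and 10.55 in E2f TKO and 9.56, 9.26, 9.67 and 9.57 in Myc KO. It differed by 0.92 ± 0.17 (adjusted p = 0.0139, and 0.0530 without Myc KO 2), and 2 further Ccnd1 probe sets differed by 1.10 and 1.48. Ccne1, for cyclin E1, read 8.17 to 8.46 in E2f TKO and 8.63 to 8.76 in Myc KO, a difference of -0.39 ± 0.09 (adjusted p = 0.0275). That call was lost without E2f TKO 2 or 5 or any Myc KO array (adjusted p up to 0.0908) and with the arrays labelled E2f TKO 2 and 5 both left out (0.0825). Ccnd2, for cyclin D2, was below every Myc KO array in all 5 E2f TKO arrays but missed the test (-0.46 ± 0.14, adjusted p = 0.0794). Both groups were above the control mean for Ccnd2, at 12.53 and 12.99 against 11.48. Ccnd3, Cdk4, Cdk6, Ccne2, Ccna1, Ccna2, Cdk2 and Cdc25a did not pass (adjusted p from 0.0651 to 0.9985). With E2f TKO 2 and 5 left out, 2 members passed higher in E2f TKO and 0 higher in Myc KO (3.06% and 3.19% of all genes). Without E2f TKO 1 the counts were 5 and 1 (10.2% and 7.32%).

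In the Myc and Max network, 2 of 13 measured members passed, both higher in E2f TKO (against 4.16% of all genes), and 1 of them is Myc itself. The other is Mga, for a Max partner that represses transcription, at 7.15, 7.97, 7.54, 7.92 and 7.51 in E2f TKO and 6.42, 6.35, 6.54 and 6.85 in Myc KO. The groups did not overlap and differed by 1.08 ± 0.17 (adjusted p = 0.00787). The paralogs Mycn and Mycl differed by -0.14 and 0.11 (adjusted p = 0.382 and 0.876). Max, the shared partner, was at 10.12 in E2f TKO 1 and 7.77 in E2f TKO 2 and differed by 0.32 ± 0.38 (adjusted p = 0.651).

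Genes of ribosome production that passed were higher in E2f TKO than in Myc KO. Of 55 measured ribosome biogenesis genes, 30 passed higher in E2f TKO and 0 higher in Myc KO, against 4.16% and 2.64% of all genes, and the list's median difference was 0.61. Rrp1b, a nucleolar factor, read 8.52, 9.26, 9.32, 9.45 and 9.12 in E2f TKO and 7.64, 7.51, 7.73 and 7.98 in Myc KO. Every E2f TKO array was above every Myc KO array, by 1.43 ± 0.18 on average (adjusted p = 0.00238). Nop16 (1.13 ± 0.16, adjusted p = 0.00401), the rRNA methyltransferase gene Nop2 (0.92 ± 0.13, adjusted p = 0.00441) and Ftsj3 (0.92 ± 0.13, adjusted p = 0.00476) likewise did not overlap. The abundant nucleolar proteins nucleophosmin and nucleolin are encoded by Npm1 and Ncl, which differed by 1.04 ± 0.18 and 0.72 ± 0.13 (adjusted p = 0.0102 and 0.0136, and 0.0529 for Ncl without Myc KO 2). Fbl, for the rRNA methyltransferase fibrillarin, was at 0.52 ± 0.18 and did not pass (adjusted p = 0.118).

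The list's array means set E2f TKO 1 apart from its group. The mean of the 55 genes was 9.42, 10.02, 9.96, 10.14 and 10.05 in E2f TKO 1 to 5 and 9.23, 9.19, 9.37 and 9.43 in Myc KO 1 to 4. E2f TKO 1 thus lay at the top of the Myc KO range while the other 4 lay clear of it. The number of members that passed was 17 with E2f TKO 2 and 5 left out (median 0.52), 49 without E2f TKO 1, and as low as 11 without Myc KO 2. None passed higher in Myc KO in those 3 fits. Of all 18193 genes, 3.06% passed higher in E2f TKO with E2f TKO 2 and 5 left out. That share was 10.2% without E2f TKO 1, and 252 of the 18193 genes did so without Myc KO 2.

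**Figure D2:**
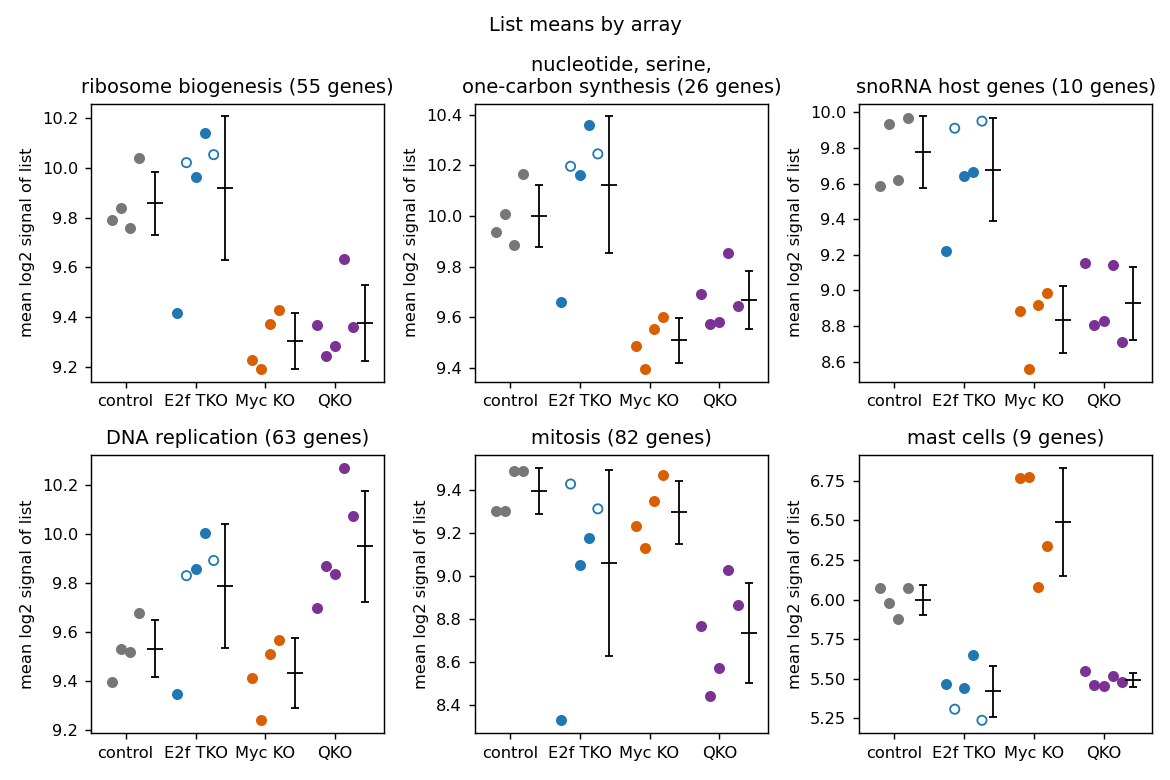
Mean log2 signal over the measured members of 6 gene lists in each of the 18 arrays by group, with bars at the mean ± SD of a group; open circles are the arrays labelled E2f TKO 2 and 5. E2f TKO 1 is the low E2f TKO point for ribosome biogenesis (9.42 against 9.96 to 10.14 in the other 4) and for DNA replication (9.35 against at least 9.83).

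Nucleotide synthesis genes that passed were also higher in E2f TKO. Of 26 genes of nucleotide, serine and one-carbon synthesis, 13 passed higher in E2f TKO and 0 higher in Myc KO (median 0.64), against 4.16% and 2.64% of all genes. Ppat, which starts purine synthesis, read 7.62, 8.55, 8.17, 8.38 and 8.74 in E2f TKO and 6.93, 6.68, 7.01 and 7.02 in Myc KO. It differed by 1.38 ± 0.20 with no overlap (adjusted p = 0.00441). Prps1, which makes the ribose precursor of nucleotides, differed by 0.77 ± 0.11 (adjusted p = 0.00422). The pyrimidine gene Umps was at 0.75 ± 0.11 (adjusted p = 0.00616) and the nucleoside diphosphate kinase gene Nme2 at 0.54 ± 0.08 (adjusted p = 0.00424). Shmt2, for the mitochondrial enzyme that takes a carbon from serine, differed by 1.10 ± 0.17 (adjusted p = 0.00765). With E2f TKO 2 and 5 left out, 9 of the 26 passed, and between 6 (without Myc KO 2) and 24 (without E2f TKO 1) passed when 1 array was left out. In those fits 3.06% of all genes, 252 of 18193 genes and 10.2% of all genes, respectively, passed higher in E2f TKO.

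Host genes carry small nucleolar RNAs in their introns, and many but not all of these RNAs guide rRNA modification. The host genes had the highest median of these lists at 0.77, and 6 of 10 passed higher in E2f TKO, against 4.16% of all genes. Snhg14 read 7.47, 8.02, 7.60, 7.24 and 7.84 in E2f TKO and 5.91, 5.44, 5.81 and 5.87 in Myc KO. That difference of 1.88 ± 0.16 (adjusted p = 0.000297) left the groups well apart, and 2 further Snhg14 probe sets differed by 1.5 and 0.61. Snhg4 differed by 1.60 ± 0.31 (adjusted p = 0.0165, and 0.0580 at most when Myc KO 1 or 2 was left out), Snhg12 by 1.04 ± 0.18 (0.0106) and Snhg8 by 0.82 ± 0.14 (0.00947). With E2f TKO 2 and 5 left out, 5 of the 10 passed, and between 3 (without Myc KO 2) and 8 (without E2f TKO 1) passed when 1 array was left out. In those fits 3.06% of all genes, 252 of 18193 genes and 10.2% of all genes, respectively, passed higher in E2f TKO.

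Nuclear transport and translation followed with smaller shares. For the counts below, 3.06% of all genes passed higher in E2f TKO with E2f TKO 2 and 5 left out, and 10.2% without E2f TKO 1. Without Myc KO 1, 2, 3 or 4 or E2f TKO 2, 3 or 4, 252 to 474 of the 18193 genes did so. Of 22 importins, exportins and their partners, 5 passed higher in E2f TKO (22.7%, against 4.16% of all genes, with a median of 0.23). That count was 4 with E2f TKO 2 and 5 left out and ran from 2 (without Myc KO 2) to 12 (without E2f TKO 1) when 1 array was left out. Ipo4, an importin of ribosomal proteins and histones, was the tightest of these at 9.88, 10.13, 9.93, 10.19 and 10.04 against 9.03, 9.05, 9.02 and 9.13. The groups lay far apart for their spread and differed by 0.97 ± 0.08 (adjusted p = 0.000231). Xpot, the tRNA exporter, differed by 0.85 ± 0.12 (adjusted p = 0.00409). Of 20 translation factors, 4 passed higher in E2f TKO (20%, median 0.34), 5 with E2f TKO 2 and 5 left out, 2 without Myc KO 2 and 13 without E2f TKO 1. They were led by the initiation factor gene Eif1a (1.13 ± 0.15, adjusted p = 0.00323) and the elongation factor gene Eef1b2 (0.86 ± 0.13, adjusted p = 0.00591). Of 25 subunits and factors of RNA polymerases I and III, 8 passed higher in E2f TKO (32.0%, median 0.27), 4 with E2f TKO 2 and 5 left out, 2 without Myc KO 1 or 2, 3 without E2f TKO 2 or 3 or Myc KO 3, 4 without Myc KO 4, 5 without E2f TKO 4 and 14 without E2f TKO 1. Among them were the polymerase I subunits Polr1b (1.10 ± 0.18, adjusted p = 0.00859) and Polr1c (0.54 ± 0.09, adjusted p = 0.0110). The polyamine enzyme gene Srm, for spermidine synthase, differed by 1.24 ± 0.17 (adjusted p = 0.00401), the 1 of 7 polyamine genes to pass.

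Some of these shares rested on few arrays. In the main fit, 4.16% of all genes passed higher in E2f TKO and 2.64% higher in Myc KO. With E2f TKO 2 and 5 left out those shares were 3.06% and 3.19%, and without E2f TKO 1 they were 10.2% and 7.32%. Without Myc KO 2, E2f TKO 2 or E2f TKO 3, respectively 252, 474 and 364 of the 18193 genes passed higher in E2f TKO. Of 16 cytosolic ribosomal protein genes, 6 passed higher in E2f TKO with a median of 0.34, but 0 passed with E2f TKO 2 and 5 left out (median 0.26) or without Myc KO 2, and 14 passed without E2f TKO 1. Of 12 chaperonin genes, 3 passed (median 0.29), 0 with E2f TKO 2 and 5 left out or without E2f TKO 2, and 11 without E2f TKO 1. Of 19 aminoacyl-tRNA synthetase genes, 5 passed higher in E2f TKO and 1 higher in Myc KO (median 0.19), against 2 and 0 with E2f TKO 2 and 5 left out, 10 and 1 without E2f TKO 1, and 1 higher in E2f TKO without E2f TKO 3. Of 25 mitochondrial ribosomal protein genes, 0 passed either way (median 0.16), against 9 higher in E2f TKO without E2f TKO 1 (10.2% of all genes in that fit).

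**Figure D3:**
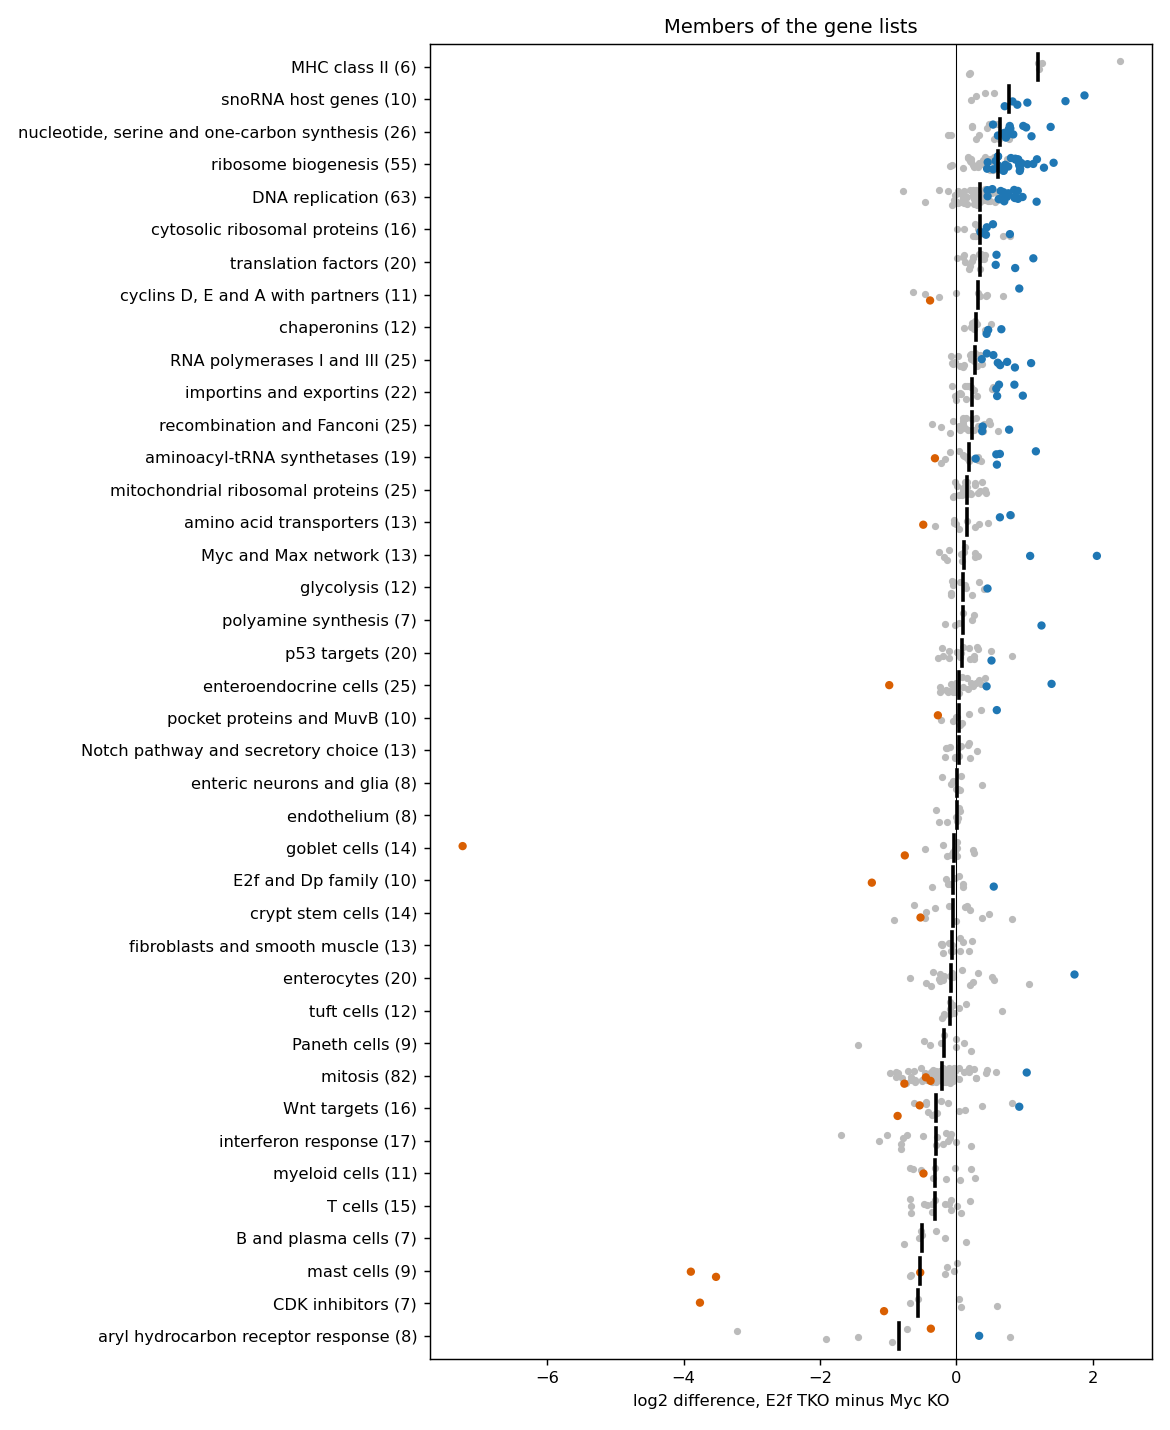
Log2 difference (E2f TKO minus Myc KO) of every measured member of each gene list with at least 4 members; blue points passed higher in E2f TKO, orange points passed higher in Myc KO, and the black line is the list's median. Ribosome biogenesis (30 of 55 blue, median 0.61) and nucleotide, serine and one-carbon synthesis (13 of 26 blue, median 0.64) lie to the right of 0, and mitosis lies to the left (median -0.21).

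DNA replication genes are textbook targets of the activator E2Fs, and those that passed were higher in E2f TKO. Of 63 measured members, 18 passed higher in E2f TKO and 0 higher in Myc KO, against 4.16% and 2.64% of all genes. The median was 0.35, and 55 members were positive by value and 8 negative. Without Myc KO 2, 3 members passed higher in E2f TKO, where 252 of all 18193 genes did. Cdt1, which loads the replicative helicase, read 11.63, 11.66, 12.10, 12.18 and 11.82 in E2f TKO and 10.88, 10.72, 10.98 and 11.05 in Myc KO. All E2f TKO arrays were higher, by 0.97 ± 0.13 (adjusted p = 0.00338), and the control mean was 11.02, within the Myc KO range. Ung, for the glycosylase that removes uracil from DNA, read 9.20, 9.82, 9.79, 9.98 and 9.89 in E2f TKO and 8.46, 8.29, 8.87 and 8.61 in Myc KO. It differed by 1.18 ± 0.17 (adjusted p = 0.00441) with E2f TKO 1 the lowest of its group.

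All 6 subunit genes of the MCM2 to MCM7 helicase passed, with Mcm2 at 0.86 ± 0.16 (adjusted p = 0.0138) and Mcm6 the smallest at 0.53 ± 0.14 (adjusted p = 0.0467). Mcm3, Mcm6 and Mcm7 kept their call only without E2f TKO 1 among the 9 fits that left out 1 array (adjusted p up to 0.133), and they missed with E2f TKO 2 and 5 left out (0.109, 0.115 and 0.0772). Mcm4 was lost without Myc KO 1 or 2 (up to 0.0613) and Mcm5 without E2f TKO 3 or Myc KO 1, 2 or 3 (up to 0.0788). The clamp loader gene Rfc4 differed by 0.90 ± 0.17 (adjusted p = 0.0140) and the helicase loader Cdc6 by 0.85 ± 0.16 (adjusted p = 0.0166). Mcm2 missed the test without Myc KO 2 (adjusted p = 0.0532), Rfc4 without Myc KO 1 (0.0504), and Cdc6 without Myc KO 1 or 2 (up to 0.0633). Not every member followed: Pcna, the sliding clamp gene, differed by 0.12 ± 0.09 (adjusted p = 0.478). Tyms, for thymidylate synthase, was at -0.78 ± 0.23 (adjusted p = 0.0730), and it was the 1 member that passed higher in Myc KO with E2f TKO 2 and 5 left out, at -1.10 (adjusted p = 0.0103). In that fit 11 members passed higher in E2f TKO, with a median of 0.33, where 3.06% of all genes passed higher in E2f TKO and 3.19% higher in Myc KO. Without E2f TKO 1, 39 passed higher in E2f TKO and 1 higher in Myc KO, where 10.2% and 7.32% of all genes did. Without Myc KO 2, 3 passed higher in E2f TKO, where 252 of 18193 genes did.

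Few mitotic genes differed between the groups. Of 82 measured members, 1 passed higher in E2f TKO (1.22%) and 3 higher in Myc KO (3.66%), against 4.16% and 2.64% of all genes. The median was -0.21, and 69 of the 82 were negative by value. The 1 higher in E2f TKO was Cenph, a kinetochore gene, at 7.21, 7.51, 7.72, 7.94 and 7.64 against 6.48, 6.35, 6.63 and 6.82 (1.03 ± 0.15, adjusted p = 0.00433). The groups do not overlap for Cenph, and the call held in each fit that left out 1 array. The 3 higher in Myc KO were Gtse1 (-0.38 ± 0.07, adjusted p = 0.0148, and 0.0535 without Myc KO 2), Fzr1, for an activator of the anaphase-promoting complex (-0.45 ± 0.10, adjusted p = 0.0240), and the kinetochore gene Ndc80 (-0.76 ± 0.20, adjusted p = 0.0473). Fzr1 was lost without E2f TKO 3 or 4 or Myc KO 1, 2 or 3 (adjusted p up to 0.0734), and Ndc80 without E2f TKO 2, 3 or 4 or any Myc KO array (up to 0.117).

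The mitotic list spread widely among the E2f TKO arrays. Its mean was 8.33 in E2f TKO 1, 9.05 to 9.43 in E2f TKO 2 to 5 and 9.13 to 9.47 in Myc KO. With E2f TKO 2 and 5 left out the median was -0.42 and 15 members passed higher in Myc KO, against 3.19% of all genes in that fit, with 1 higher in E2f TKO. Among them were the proliferation marker Mki67 (-1.53, adjusted p = 0.0232), the mitotic cyclin gene Ccnb2 (-1.46, 0.0285) and the cytokinesis gene Racgap1 (-1.27, 0.0301). Without E2f TKO 1 the median was -0.05, and 4 members passed higher in E2f TKO and 5 higher in Myc KO, where 10.2% and 7.32% of all genes did.

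Letters of the E2F and Myc binding motifs were looked up in RefSeq promoter windows of GRCm38.p6, 250 bases before to 50 after a gene's start, which were matched for 14368 of the 18193 genes. The E2F motif was any of TTTCCCGC, TTTGGCGC, TTTCGCGC and TTTGCCGC on either strand, and the E-box was CACGTG, which reads the same on both strands. The motifs share no stretch that would count one as the other. At least 1 window of 3.80% of genes held an E2F motif, against 38.0% of 50 DNA replication genes, 9.86% of 71 mitotic genes and 8.16% of 49 ribosome biogenesis genes. An E-box stood in 10.3% of all genes, against 14.0%, 5.63% and 24.5% of the same lists. Among the genes that passed, the E2F motif was in 7.80% of 615 higher in E2f TKO and 5.04% of 377 higher in Myc KO, and the E-box in 15.9% and 10.1%. These shares are descriptions of letters, not of bound sites.

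The stretches printed here show what such a promoter looks like, with the motif in capitals and each written along its gene's strand. Each is from the passing list member with the smallest p whose window holds the motif wholly before the start. Windows on a single chromosome were passed over in this search. The mitosis, cyclin and CDK inhibitor lists gave no stretch for either motif, and DNA replication gave none for the E-box. Uhrf1, for a protein that helps to maintain DNA methylation at replication, read 10.37 to 11.27 in E2f TKO and 9.74 to 10.19 in Myc KO (0.90 ± 0.17, adjusted p = 0.0155, and 0.0577 without Myc KO 2). Its stretch at chr17:56304078-56304185 (plus strand) holds an E2F motif 177 bases before the start. The Ncl stretch at chr1:86359622-86359705 (minus strand) holds one on the opposite strand, 216 bases before the start. The Nop2 stretch at chr6:125131773-125131878 (plus strand) holds an E-box 54 bases before the start.
Uhrf1: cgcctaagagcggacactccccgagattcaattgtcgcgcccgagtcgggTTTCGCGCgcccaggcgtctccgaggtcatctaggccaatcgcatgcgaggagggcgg
Ncl: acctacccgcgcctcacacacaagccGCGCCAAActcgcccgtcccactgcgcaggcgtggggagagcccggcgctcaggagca
Nop2: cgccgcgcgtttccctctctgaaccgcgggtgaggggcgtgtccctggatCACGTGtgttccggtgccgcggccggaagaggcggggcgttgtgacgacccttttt

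Outside growth and the cell cycle, the single genes that differed most included secreted and surface proteins of the epithelium. Retnlb, for a goblet cell protein released into the gut lumen, read 5.91, 6.06, 7.13, 6.35 and 5.11 in E2f TKO and 12.58, 14.23, 13.61 and 12.97 in Myc KO. The E2f TKO arrays lay around the array medians, while the Myc KO arrays were above the control range of 11.86 to 12.30. QKO arrays, also labelled as lacking E2f1, E2f2 and E2f3, read 13.44 to 14.37, unlike E2f TKO. The difference between E2f TKO and Myc KO was -7.24 ± 0.41 (adjusted p = 1.91e-05). The other goblet cell genes did not share it. Of 14 measured goblet markers only Retnlb and Rep15 passed, both higher in Myc KO, where 2.64% of all genes did. Muc2, the secreted mucin, differed by -0.09, Tff3 by -0.19, Clca1 by 0.02 and Fcgbp by -0.04 (adjusted p from 0.224 to 0.958). Rep15 was at -0.76 ± 0.17 (adjusted p = 0.0280), a call lost without E2f TKO 3 or 4 or Myc KO 1, 2 or 4 (up to 0.0876).

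St3gal4, for a sialyltransferase, had the highest difference among the 10 genes named for being most above Myc KO. It read 12.70, 7.65, 12.04, 11.34 and 12.05 in E2f TKO and 5.58, 6.27, 6.40 and 6.13 in Myc KO. The array labelled E2f TKO 2 was well below the others of its group but above Myc KO, and the difference was 5.06 ± 0.86 (adjusted p = 0.0102). The control mean was 6.31 and the QKO mean 11.29. Muc4, a membrane mucin, read 7.91, 9.59, 9.44, 9.24 and 9.14 against 7.37, 4.84, 5.67 and 5.77 (3.15 ± 0.48, adjusted p = 0.00622), and other Muc4 probe sets differed by only 0.79 and 0.08. Ccnb1ip1, for a ligase known from meiotic crossover, read 8.21, 7.91, 8.07, 9.13 and 7.09 in E2f TKO and 5.11 to 5.74 in Myc KO (2.67 ± 0.33, adjusted p = 0.00218). Its control mean, 6.94, lay between the groups.

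Several further genes in this set lie near a deleted gene or in families of near-identical copies. Amph (3.53 ± 0.38, adjusted p = 0.00103), for the endocytic protein amphiphysin, and Epdr1 (2.19 ± 0.25, adjusted p = 0.00128) lie within 20 Mb of E2f3, and Rbp7 (-3.53 ± 0.49, adjusted p = 0.00401), for a retinol-binding protein, within 20 Mb of E2f2. Probe sets of Defa31 (3.42 ± 0.76, adjusted p = 0.0280), an alpha-defensin, Trim30d (4.32 ± 0.96, adjusted p = 0.0278) and the heat shock gene Hspa1b (2.61 ± 0.62, adjusted p = 0.0364) may also read related copies. These 3 calls were lost in 6 or 7 of the fits that left out 1 array (adjusted p up to 0.111). Defa31 kept its call without E2f TKO 1 or 5, Trim30d without E2f TKO 1 or 5 or Myc KO 4, and Hspa1b without E2f TKO 1, 2 or 5. For Defa31 the QKO mean was 7.25, against 10.28 in E2f TKO and 6.87 in Myc KO. Trim30d was at 9.40 in Myc KO 4 and 3.91 to 4.94 in the other Myc KO arrays, and it missed the test with E2f TKO 2 and 5 left out (adjusted p = 0.0693). D17H6S56E-5 (2.01 ± 0.37, adjusted p = 0.0144) was lost without Myc KO 1 or 2 (up to 0.0539).

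On the Myc KO side, Tmem87a was at 6.22 to 6.94 in E2f TKO and 9.28 to 9.40 in Myc KO, a difference of -2.83 ± 0.14 (adjusted p = 5.76e-06), with control arrays at 9.19 to 9.40. QKO arrays spread from 6.42 to 9.62 for Tmem87a. Nkx6-3, a homeobox gene, read 5.12, 5.40, 5.24, 5.22 and 6.83 in E2f TKO and 7.98 to 8.89 in Myc KO (-2.69 ± 0.35, adjusted p = 0.00264). The array labelled E2f TKO 5 stood above the rest of its group for Nkx6-3 without reaching Myc KO. AI506816 (-3.04 ± 0.27, adjusted p = 0.000316), the phosphodiesterase gene Gdpd3 (-2.10 ± 0.25, adjusted p = 0.00167) and Ugt2b38, for a glucuronosyltransferase (-2.57 ± 0.47, adjusted p = 0.0140), completed the 10 on this side with Retnlb, Cdkn2c, Rbp7 and the mast cell proteases Mcpt1 and Mcpt2.

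**Figure D4:**
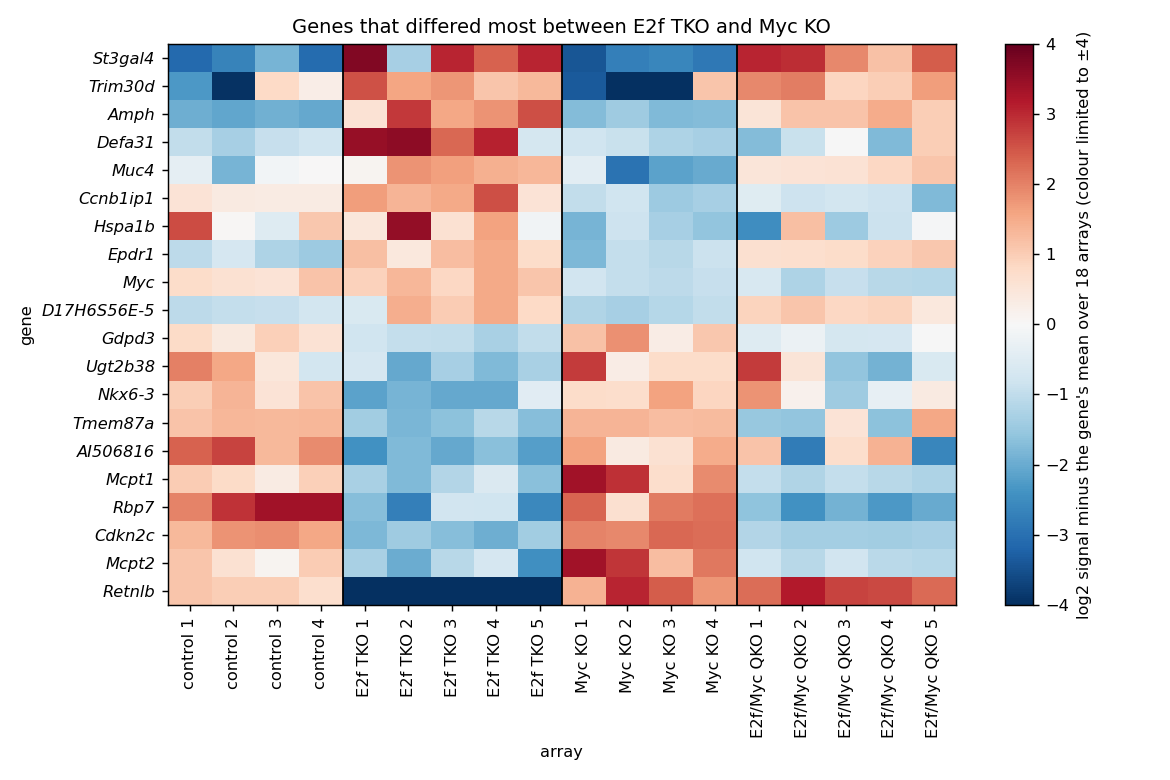
Log2 signal of the 10 genes most above and the 10 most below Myc KO in E2f TKO, in each of the 18 arrays, as the difference from the gene's mean over all 18; the colour scale is limited to 4 on either side of 0. St3gal4 is low in the array labelled E2f TKO 2 (7.65) and Trim30d is high in Myc KO 4 (9.40), each unlike the rest of its group.

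Markers of other cells were examined beside these results. Mcpt1 and Mcpt2, proteases of mucosal mast cells, were higher in Myc KO by differences of -3.52 ± 0.48 and -3.89 ± 0.45 (adjusted p = 0.00356 and 0.00151). Mcpt2 read 5.80, 5.12, 5.97, 6.41 and 4.64 in E2f TKO and 10.43, 9.95, 8.32 and 9.21 in Myc KO, with control arrays between at 7.21 to 8.19. Another protease gene, Mcpt4, passed at -0.53 ± 0.12 (adjusted p = 0.0256), lost without E2f TKO 2, 3 or 5 or Myc KO 1 or 2 (up to 0.0876), and with the arrays labelled E2f TKO 2 and 5 both left out (0.0817). The other 6 of 9 mast cell markers did not pass. Of all genes, 2.64% passed higher in Myc KO. The receptor gene Kit differed by -0.04 and the tryptase gene Tpsb2 by 0.01 (adjusted p = 0.909 and 0.976). The list mean was 5.24 to 5.65 in E2f TKO and 6.08 to 6.78 in Myc KO, with no overlap.

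Lists for most other cell types held few passing members. Of all genes, 4.16% passed higher in E2f TKO and 2.64% higher in Myc KO. Of 14 crypt stem cell markers, only Rnf43 passed (-0.54 ± 0.11, adjusted p = 0.0217), while Lgr5 differed by 0.82 ± 0.33 (adjusted p = 0.166) and Olfm4 by 0.20 (adjusted p = 0.537). This list changed with the odd arrays, from a median of -0.06. With E2f TKO 2 and 5 left out it was -0.29, and 3 members passed higher in Myc KO (3.19% of all genes). Without E2f TKO 1 it was 0.11, with 4 higher in E2f TKO and 1 higher in Myc KO (10.2% and 7.32% of all genes). Of 16 Wnt targets, Ccnd1 passed higher in E2f TKO and Rnf43 and Etv4 (-0.86 ± 0.16, adjusted p = 0.0143) higher in Myc KO. Rnf43 was lost without E2f TKO 3 or Myc KO 1, 2 or 3 (up to 0.0681) and Etv4 without Myc KO 1 (0.0522). Of 25 enteroendocrine markers, the neurotensin gene Nts (1.40 ± 0.37, adjusted p = 0.0495) and the prohormone-processing gene Cpe (0.44 ± 0.11, adjusted p = 0.0444) passed higher in E2f TKO and the granule gene Scg5 (-0.98 ± 0.12, adjusted p = 0.00249) higher in Myc KO. Scg5 kept its call in each fit that left out 1 array, and Nts and Cpe lost theirs in 7 of 9, keeping it without E2f TKO 1 and, respectively, without E2f TKO 5 or Myc KO 3. Of 20 enterocyte genes, the brush border protease gene Mep1a passed higher in E2f TKO (1.73 ± 0.32, adjusted p = 0.0137, and 0.0529 at most without Myc KO 1 or 2). The enterocyte list mean was 13.24 in E2f TKO 1 and 11.62 to 12.45 in the other 8 arrays. Its median difference was -0.08, against 0.17 with E2f TKO 2 and 5 left out and -0.29 without E2f TKO 1. In the last of these fits 4 members passed higher in Myc KO and 1 higher in E2f TKO, where 7.32% and 10.2% of all genes did.

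No member passed among 9 Paneth cell markers (median -0.18), 12 tuft cell markers (-0.09), 15 T cell markers (-0.32), 7 B and plasma cell markers (-0.50) or 13 fibroblast and smooth muscle markers (-0.06). The T cell median was 0.34 with E2f TKO 2 and 5 left out and -0.05 without E2f TKO 5. With both left out, 2 tuft cell markers passed higher in Myc KO, where 3.19% of all genes did. The B and plasma cell median ran from -0.68 (without E2f TKO 2) to -0.15 (without Myc KO 2), and the fibroblast median changed sign without Myc KO 1 (0.02). Of 17 interferon response genes 16 were lower in E2f TKO by value, with a median of -0.30, and 0 passed. Their list mean was 8.33 in Myc KO 4 and 6.44 to 7.04 in the other Myc KO arrays, and the median without Myc KO 4 was -0.05. Without E2f TKO 1, 2 passed higher in Myc KO, where 7.32% of all genes did. Of 6 MHC class II genes all were higher in E2f TKO by value, with a median of 1.20, and 0 passed. The median was 0.62 without E2f TKO 1, 1.79 without E2f TKO 5 and 2.06 with E2f TKO 2 and 5 left out, and 1 member passed higher in E2f TKO in the first and the last of these fits. Of all genes, 10.2% and 3.06% passed higher in E2f TKO in those fits. The MHC class II list mean was 11.04 in E2f TKO 1, 7.24 in E2f TKO 5 and 7.41 to 8.90 in Myc KO, so that the groups overlapped. The part of other cell types in the gene differences was not tested.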

How the data were processed

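Gene lists, members and alternatives were chosen with earlier results of these data known. The authors deposited log2 signals for 45101 probe sets on 18 arrays; the log2 scale is inferred from values of 2.29 to 14.81, and how they were normalized and summarized is not given in the sources used here. Scanner files were not analysed here. Of the probe sets, 34945 have 1 gene symbol in the platform annotation, 932 several, 9160 none and 64 are controls. Each of 18193 genes was read by the probe set brightest on average across all arrays, with no filter on dim signals.

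The 5 E2f TKO and 4 Myc KO arrays, grouped by title, were fitted with limma 3.58.1 (lmFit, eBayes) in R 4.3.3, two-sided, with Benjamini-Hochberg adjustment over all genes and a threshold of 0.05. Lists (41) were described by counts and medians, with no set test. The rule for the named genes took the targeted genes and the 10 most different genes each way. The latter were ranked among genes that passed with no overlap and a higher group mean above the median gene's. It also took up to 4 passing members of each list with the smallest p, and all measured members of the E2f, CDK inhibitor, cyclin and Myc lists. Not all of these genes are described in the text, but counts of named genes cover all of them. Members outside this rule (among them Npm1, Ncl, Fbl, Shmt2, Cdc6, Mcm6, Pcna, Tyms, Mki67, Ccnb2, Racgap1, Muc2, Kit and Lgr5) were named after their values were seen. Pairs of the 9 arrays correlated at 0.977 to 0.995, with 0 identical pairs.

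Replicate numbers were checked for pairing: deviations of same-numbered arrays from their group means correlated at 0.0931, -0.109, -0.0464 and -0.0159, so numbers were not taken to pair arrays. On simulated data with 200 of the 18193 genes changed between groups of 5 and 4, 43.3% of changes of 0.5, 88.1% of changes of 1 and 97% of changes of 2 were recovered, with 10 false among 162 calls. The simulated noise was independent for each gene and array. These rates therefore do not cover shifts shared by many genes, such as those of E2f TKO 1. Alternatives were a fit of all 18 arrays, quantile normalization, median centring, only genes above the median level, probe sets averaged, restricted by suffix or all tested, the replicate block, trended and robust eBayes, array weights, Xist or actin covariates, low-Xist arrays only, and leaving out arrays or linked genes. Files were read with data.table (version 1.17.8) and figures drawn with matplotlib 3.10.9.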

Additional observations from a re-analysis of the deposited data

Results flagged for a closer look

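In 270 groups of 4 or 5 values, of named genes and of list means, 31 had an array whose gap to the nearest other array was large for the group's range. Chance flags about 1 in 20 groups, and values of 1 array are not independent of each other. E2f TKO 1 accounted for 17 of the 31.

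For list means, E2f TKO 1 was the low array of its group for ribosome biogenesis (9.42), DNA replication (9.35), nucleotide, serine and one-carbon synthesis (9.66), translation factors (11.46), chaperonins (11.90), cyclins and partners (9.05), pocket proteins and MuvB (8.43) and Paneth cells (10.51), and the high array for p53 targets (9.02). For single genes it was the low array for Muc4 (7.91), Ung (9.20), Rfc4 (9.45), Nme2 (13.33), Rplp0 (14.14), Blm (7.54), Cct8 (11.11) and Cct2 (12.34).

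The array labelled E2f TKO 2 was low for St3gal4 (7.65), and that labelled E2f TKO 5 was high for Nkx6-3 (6.83) and low for the amino acid transporter mean (8.89). Among Myc KO arrays, array 1 was high for Ugt2b38 (9.03) and the Myc and Max network mean (8.70, Myc included) and low for Eif2b3 (8.25). Myc KO 2 was high for Amph (4.30) and low for Rbp7 (8.88), Snhg8 (10.03), Eif4b (11.38) and Rplp0 (13.79). Myc KO 3 was low for Aldh3a1 (2.99), and Myc KO 4 was high for Nme2 (13.09) and the red blood cell mean (6.36).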

How the results depend on the processing

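None of the 91 named genes that passed changed direction in any alternative that gave 1 value per gene. The fit of every probe set was not scored for named genes. Some of their other probe sets had the opposite sign, such as those of Lin54 (-0.29) and Kpna4 (-0.23). E2f2 and E2f3, which did not pass, changed sign (E2f3 from 0.10 to -0.30 with the arrays labelled E2f TKO 2 and 5 left out, E2f2 from -0.02 to 0.13 without Myc KO 2). The medians of the lists of ribosome biogenesis, nucleotide synthesis, snoRNA hosts, ribosomal proteins, DNA replication and mitosis moved by less than the spread between arrays. For mitosis that spread (0.34) was larger than the median (-0.21), so the measure cannot show stability. The mitosis median ran from -0.48 with the actin covariate to -0.03 with low-Xist arrays only. Of 91 named genes that passed, 41 kept their call in all 9 fits that left out 1 array and with the arrays labelled E2f TKO 2 and 5 both left out. The count of genes, 1237 (756 higher in E2f TKO, 481 higher in Myc KO), was 2552 (1432 and 1120) in a fit of all 18 arrays, 14.0% of genes, 3245 (1761 and 1484) with array weights, 2485 (1487 and 998) with low-Xist arrays only and 2376 (1329 and 1098, some genes in both) with every probe set tested. It fell to 253 (153 and 100) with the actin covariate, which cost 56 of the named genes their call; that covariate does not overlap between the groups. Median centring gave 1152 and 271, and genes above the median level gave 305 higher in Myc KO. Leaving out 1 array gave 390 (without Myc KO 2) to 3180 (without E2f TKO 1), with 252 to 1848 higher in E2f TKO and 138 to 1332 higher in Myc KO. With the replicate number as a block, which the pairing check did not bear out, 463 genes passed (308 and 155), and 41 named genes lost their call. The causes of these shifts were not tested.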
